A study of Mus musculus with 2 samples.

Results

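Glycolysis and the hypoxia response were examined in newborn mouse lung as a set of 36 genes, of the 43346 mouse genes in the deposited tables. The set was put together by function: 4 subunits of the hypoxia-inducible factors (HIF), 4 genes of oxygen sensing, 2 glucose transporters, 16 genes of glycolysis, 5 genes of lactate and pyruvate handling and 5 HIF targets outside glucose metabolism. All 36 were matched by gene identifier. Total RNA longer than 200 nt came from the 2 lungs of each of 2 pups of strain B6NCrl on postnatal day 0, with 10 ng of RNA per library. Replicate 1 is pup 1 and replicate 2 is pup 3. The labels record neither a treatment nor a genetic change, and give both pups pregnancy number 1 and the same donor identifier, so that whether they are separate animals rests on the pup numbers. There is 1 group and no control, and each SD below describes the spread between these 2 libraries, which may be technical.

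Glycolysis splits glucose into pyruvate in the cytosol and yields ATP without oxygen, and lactate dehydrogenase then turns pyruvate into lactate to regenerate the NAD+ that the pathway consumes. HIF is a pair of proteins, an alpha subunit and its partner ARNT. In oxygen the prolyl hydroxylases mark the alpha subunit for the ubiquitin ligase that holds VHL, and it is destroyed, so that HIF activity is set largely at the protein level and RNA of a subunit does not report it. When oxygen is low the alpha subunit persists, binds short DNA motifs near genes of glucose uptake, glycolysis and vessel growth, and raises their transcription. The fetal lung grows in low oxygen, and birth moves it to air.

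Libraries held 42189536 expected counts over genes in pup 1 and 37026165 in pup 3. Expected counts are estimated read counts that need not be whole, and a level is given in TPM, a count per length scaled to a common total. Single members had between 83 and 24606 counts in pup 1 and between 57 and 18993 in pup 3. Lung markers were high in both pups, with surfactant protein gene Sftpc at 77317 TPM in pup 1 and 68981 TPM in pup 3. The 8 red cell markers summed to 55563 TPM in pup 1 and 66583 TPM in pup 3, the 8 cardiac muscle markers to 708 TPM in pup 1 and 811 TPM in pup 3, and the 8 myeloid markers to 719 TPM in pup 1 and 707 TPM in pup 3. These lists were led by Hba-a2, Myl7 and S100a8. The 8 lung epithelial markers, led by Sftpc, summed to 109524 TPM in pup 1 and 101413 TPM in pup 3, and the 6 endothelial and mesenchymal ones, led by Tcf21, to 1410 TPM in pup 1 and 1425 TPM in pup 3. Skeletal muscle markers, led by Ckm, and neuronal and neuroendocrine markers, led by Stmn2, each summed to under 61 TPM in both pups, and Myod1, which defines skeletal muscle, had 0 counts in both. In whole tissue, fewer cells of a type and less RNA per cell cannot be told apart, and the part that any of these cells has in the values below was not tested.

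All 36 members were expressed at TPM 1 or more in both pups, against 60.3% of the 21474 protein-coding genes. The members were picked as genes of known central pathways, and the share is given as a description. Together they held 3003 TPM in pup 1 and 2928 TPM in pup 3, which is 0.300% of the TPM of all genes in pup 1 and 0.293% in pup 3. Ldha, Gapdh, Aldoa, Pkm and Eno1 alone made up 60.1% of that sum in pup 1 and 58.4% in pup 3. Levels of single genes spanned more than 2 orders of magnitude, with 9 members at 100 TPM or more in both pups and 5 under 5 TPM in both. The median protein-coding gene among those at TPM 1 or more in both pups stood at 15.27 TPM in pup 1 and 16.04 TPM in pup 3. Of the members, 22 lay above that median in both pups and 12 below it in both.

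**Figure D1:**
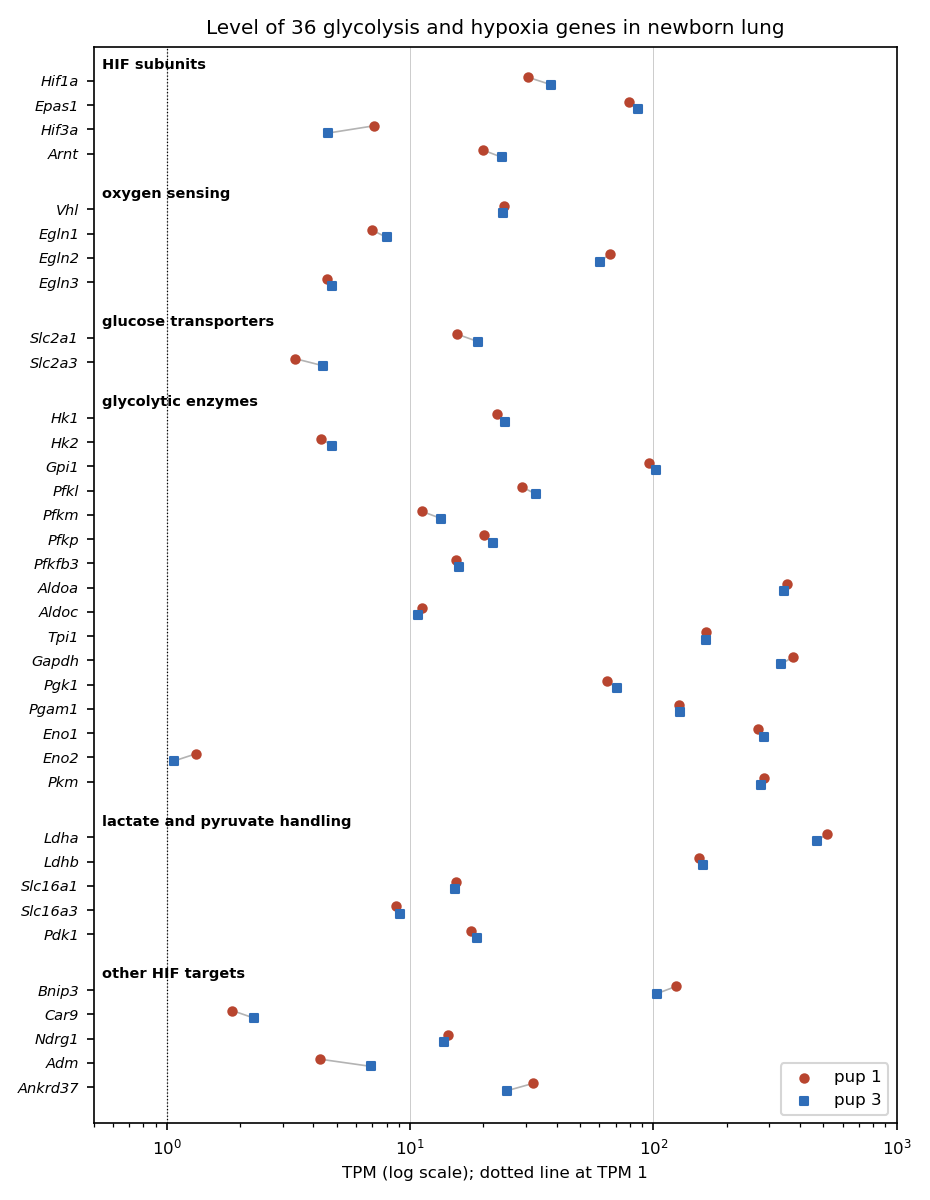
Level of each of the 36 genes in pup 1 (circle, drawn above) and pup 3 (square, drawn below), in TPM on a log axis, grouped by role, with a dotted line at TPM 1. Every gene lies right of the line, from Eno2 at 1.32 TPM in pup 1 and 1.07 TPM in pup 3 to Ldha at 518 TPM in pup 1 and 470 TPM in pup 3, and the distance between pups is small beside the distance between genes.

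Among the HIF subunits, Epas1 was the highest. This gene encodes HIF-2 alpha, the form known for its role in endothelium and in alveolar epithelium, and had 79.0 TPM in pup 1 and 86.2 TPM in pup 3. Hif1a, which encodes HIF-1 alpha, the form that drives glycolytic genes, had 30.6 TPM in pup 1 and 37.8 TPM in pup 3. Epas1 thus stood 2.43-fold above Hif1a, a log2 ratio of 1.28 ± 0.13 (SD, n = 2), with the same order in both pups. Arnt, the shared partner, had 19.9 TPM in pup 1 and 23.8 TPM in pup 3, below both of these alpha subunits. Hif3a, whose shorter products are known to restrain HIF, had 7.11 TPM in pup 1 and 4.6 TPM in pup 3 and was the lowest of the 4. Hif1a exceeded it 5.94-fold and Epas1 14.4-fold. Neighbours in the order Epas1, Hif1a, Arnt, Hif3a did not overlap over the pups.

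Transcript shares come from the deposited isoform percent, the part of a gene's TPM assigned to each of its transcripts. Epas1 had 1 transcript in the tables. Hif1a-201 held 78.4% of Hif1a in pup 1 and 79.5% in pup 3, and Hif1a-202, also protein-coding, held 13.7% in pup 1 and 13.6% in pup 3. Hif3a divided less evenly between the pups: Hif3a-202, its longest transcript at 6402 bases, held 65.2% in pup 1 and 80.9% in pup 3, while Hif3a-201 held 19.5% in pup 1 and 5.63% in pup 3. In counts, Hif3a-201 had 94.24 in pup 1 and 14.99 in pup 3, so that its share rests on few reads in pup 3.

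Oxygen sensing was led by Egln2. Egln2 encodes prolyl hydroxylase PHD1 and had 66.1 TPM in pup 1 and 60.2 TPM in pup 3. Egln1, which encodes PHD2, the main oxygen sensor in most tissues, had 6.96 TPM in pup 1 and 8 TPM in pup 3, and Egln3, which encodes PHD3 and is itself a HIF target, had 4.56 TPM in pup 1 and 4.77 TPM in pup 3. Egln2 was 8.45-fold above Egln1 and 13.5-fold above Egln3, and Egln1 was 1.60-fold above Egln3. That last gap, a log2 ratio of 0.68 ± 0.096 (SD, n = 2), is the narrowest within this family. Vhl had 24.2 TPM in both pups. Of the ligase subunits outside the set, Elob had 695 TPM in pup 1 and 629 TPM in pup 3, Rbx1 had 200 TPM in pup 1 and 182 TPM in pup 3, and Eloc had 169 TPM in pup 1 and 156 TPM in pup 3. Every one of these 3 thus stood above Vhl, the subunit that recognises the substrate. Cul2, a further ligase subunit, was close to Vhl, at 26.7 TPM in pup 1 and 25.8 TPM in pup 3. On coding transcripts alone Cul2 had 7.06 TPM in pup 1 and 8.8 TPM in pup 3. That was below Vhl, whose coding transcripts gave 24.04 TPM in pup 1 and 24.19 TPM in pup 3. Arnt2, an ARNT relative known from neurons, was the only gene of the 10 in that list under TPM 1 in both pups, at 0.64 TPM in pup 1 and 0.57 TPM in pup 3.

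Slc2a1 was the higher of the 2 glucose transporters in the set. It encodes GLUT1, the basal transporter of most cells, and had 15.6 TPM in pup 1 and 19.0 TPM in pup 3. Slc2a3, which encodes the high-affinity transporter GLUT3, had 3.35 TPM in pup 1 and 4.39 TPM in pup 3, so that Slc2a1 was 4.49-fold higher, or 6.88-fold with counts divided by the longest transcript of each gene. Outside the set, Slc2a4 had 3.25 TPM in pup 1 and 3.88 TPM in pup 3, close to Slc2a3. Slc2a2, the transporter of liver and pancreatic islets, was at 0.20 TPM in pup 1 and 0.26 TPM in pup 3.

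Phosphorylation of glucose had the lowest transcript level of the glycolytic steps. Summed over the 5 genes measured for hexokinase, the step held 36.04 TPM in pup 1 and 37.77 TPM in pup 3. Hk1, the hexokinase of most tissues, had 22.7 TPM in pup 1 and 24.6 TPM in pup 3 and made up 63.04% of the step in pup 1 and 65.03% in pup 3. Hk2, the insulin-responsive and HIF-inducible hexokinase of muscle, had 4.29 TPM in pup 1 and 4.78 TPM in pup 3, 5.22-fold below Hk1. Its gap to Hk1 was wider when only protein-coding transcripts were counted, since Hk2-202, a processed transcript of 594 bases without a coding sequence, held 53.0% of Hk2 in pup 1 and 55.0% in pup 3. In counts, Hk2-202 had only 36.3 in pup 1 and 35.8 in pup 3, against 352 in pup 1 and 306 in pup 3 on the coding Hk2-201. On coding transcripts alone Hk2 had 2.01 TPM in pup 1 and 2.15 TPM in pup 3 and Hk1 stood 11.2-fold above it, and with counts divided by the longest transcript 9.78-fold. Hkdc1, a hexokinase relative outside the set picked after its values were seen, had 7.09 TPM in pup 1 and 5.53 TPM in pup 3. It made up 19.7% of the step in pup 1 and 14.6% in pup 3, above Hk2 with 11.9% in pup 1 and 12.7% in pup 3. Hk1 itself divided into Hk1-202 with 67.7% in pup 1 and 68.7% in pup 3 and Hk1-201 with 31.2% in pup 1 and 28.7% in pup 3.

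Gpi1, the isomerase that follows, had 95.9 TPM in pup 1 and 102 TPM in pup 3. Phosphofructokinase, the committed step and the main point of control, was shared by 3 genes. Pfkl, the liver form, had 28.9 TPM in pup 1 and 32.9 TPM in pup 3. Pfkp, the platelet form, had 20.2 TPM in pup 1 and 21.9 TPM in pup 3, and Pfkm, the muscle form, had 11.1 TPM in pup 1 and 13.4 TPM in pup 3. As shares of the step, Pfkl held 48.0% in pup 1 and 48.3% in pup 3, Pfkp 33.5% in pup 1 and 32.1% in pup 3, and Pfkm 18.5% in pup 1 and 19.7% in pup 3. Pfkl exceeded Pfkm 2.52-fold and Pfkp 1.47-fold, and Pfkp exceeded Pfkm 1.72-fold. The order of Pfkp and Pfkm depended on the length used: with counts divided by the longest transcript, the log2 ratio of Pfkm over Pfkp was -0.21 in pup 1 and 0.0077 in pup 3, and the 2 genes could not be ordered. By the same lengths Pfkl exceeded Pfkp 2.38-fold. Pfkm came from Pfkm-202 for 63.2% in pup 1 and 56.0% in pup 3 and from Pfkm-201 for 36.8% in pup 1 and 44.0% in pup 3. Pfkfb3, which makes the sugar bisphosphate that activates phosphofructokinase, had 15.5 TPM in pup 1 and 15.9 TPM in pup 3.

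The aldolase step held 366 TPM in pup 1 and 355 TPM in pup 3, which is 6.08 times the phosphofructokinase sum in pup 1 and 5.20 times in pup 3. Aldoa, the aldolase of muscle and most other tissues, had 355 TPM in pup 1 and 344 TPM in pup 3 and made up 96.9% of the step in both. Aldoc, the brain form, had 11.2 TPM in pup 1 and 10.8 TPM in pup 3, 31.8-fold lower, or 49.8-fold by longest-transcript lengths. Tpi1, the isomerase that interconverts the triose phosphates, had 164 TPM in both pups.

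Gapdh, which reduces NAD+ at the first energy-yielding step, had 376 TPM in pup 1 and 336 TPM in pup 3. Most of that TPM came from a short transcript: Gapdh-208, a processed transcript of 483 bases without a coding sequence, held 56.1% in pup 1 and 58.0% in pup 3. Gapdh-203, the leading protein-coding transcript at 1420 bases, held 38.2% in pup 1 and 35.7% in pup 3. By counts the order was the other way, with 6132 in pup 1 and 4356 in pup 3 on Gapdh-203, against 2616 in pup 1 and 2055 in pup 3 on Gapdh-208. On coding transcripts alone Gapdh had 163 TPM in pup 1 and 139 TPM in pup 3. Gapdh also has 67 pseudogene copies of at least 95% identity over at least 200 bases, and these held 7.67% of the joint counts in pup 1 and 8.14% in pup 3. Its level is therefore uncertain by more than its spread between pups, 356 ± 28.4 TPM (SD, n = 2).

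Pgk1, the kinase that makes the first ATP of the pathway, had 64.4 TPM in pup 1 and 70.8 TPM in pup 3, the lowest level after the phosphofructokinase step. Its retrocopy Pgk1-rs7 aligned at 100% identity over 1255 bases and took 13.6% of the joint counts in pup 1 and 9.47% in pup 3, and testis-specific Pgk2 had 0 counts in both libraries. Pgam1, the mutase of most tissues, had 128 TPM in pup 1 and 129 TPM in pup 3, with 4.62% of joint counts in pup 1 and 5.59% in pup 3 on its copy Pgam1-ps2. Pgam2, its muscle form outside the set, had 26.3 TPM in pup 1 and 25.5 TPM in pup 3 and added 17.0% of the step in pup 1 and 16.5% in pup 3.

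Enolase was almost all Eno1. Eno1, the ubiquitous form, had 270 TPM in pup 1 and 284 TPM in pup 3 and made up 92.5% of the step in pup 1 and 92.2% in pup 3, and Eno1-202 held 96.6% of the gene in pup 1 and 96.3% in pup 3. Eno2, the form of neurons and neuroendocrine cells, had 1.32 TPM in pup 1 and 1.07 TPM in pup 3 and was the lowest of all 36 members. Eno1 exceeded it 233-fold, a log2 ratio of 7.87, and 363-fold on coding transcripts, and with posterior mean TPM the log2 ratio was 6.91. Only 83 counts in pup 1 and 57 in pup 3 fell on Eno2, and its coding transcripts gave 0.88 TPM in pup 1 and 0.63 TPM in pup 3. Among markers of its cells, Stmn2 had 44.99 TPM in pup 1 and 48.88 TPM in pup 3, Chga had 0.47 TPM in pup 1 and 0.43 TPM in pup 3 and Calca 7.81 TPM in pup 1 and 8.86 TPM in pup 3. Eno3, the muscle form, had 18.3 TPM in pup 1 and 20.3 TPM in pup 3, above Eno2. Muscle isoenzymes Pgam2, Eno3 and Pfkm were thus all measured, in libraries where the cardiac marker Myl7 had 288 TPM in pup 1 and 358 TPM in pup 3, and the share of muscle in them was not tested.

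Pkm, which makes pyruvate and ATP in the last step, had 286 TPM in pup 1 and 276 TPM in pup 3. It lies on chromosome 9 at 59656368 to 59679375 of mm10, forward strand. Pklr, the liver and red cell pyruvate kinase, had 0.12 TPM in pup 1 and 0.29 TPM in pup 3. Pkm has 2 main forms that differ by the choice between a pair of exons of equal length. PKM1, the form of adult muscle and brain, uses the upstream exon, and PKM2, the form of embryonic and proliferating cells, uses the downstream exon. Both exons are 167 bases long, lie 372 bases apart and differ at 64 positions, an identity of 61.7% with no gap. They are printed as the exon pair that tells PKM1 and PKM2 apart, with capitals at the positions where the exons differ, 5′ to 3′ on the forward strand, from the mouse reference transcripts. In that annotation 8 of the 11 exons of each transcript are shared, so that reads outside this pair may also enter the share of a form.
Pkm-201 exon, chr9:59675568-59675734 (PKM2): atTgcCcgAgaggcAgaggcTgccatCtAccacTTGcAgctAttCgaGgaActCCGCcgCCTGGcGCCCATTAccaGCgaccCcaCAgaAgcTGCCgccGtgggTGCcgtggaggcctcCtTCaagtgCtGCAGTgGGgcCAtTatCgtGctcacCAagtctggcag
Pkm-202 exon, chr9:59675029-59675195 (PKM1): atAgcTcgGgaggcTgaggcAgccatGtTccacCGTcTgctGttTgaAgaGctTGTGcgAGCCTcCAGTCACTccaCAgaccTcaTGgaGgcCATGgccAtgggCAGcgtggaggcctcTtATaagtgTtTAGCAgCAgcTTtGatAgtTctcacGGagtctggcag
Pkm-201, the transcript with the downstream exon, held 94.79% of Pkm in pup 1 and 94.85% in pup 3. Pkm-202, with the upstream exon, held 5.21% in pup 1 and 5.15% in pup 3. In counts this is 20418 in pup 1 and 16752 in pup 3 for Pkm-201, against 1121 in pup 1 and 910 in pup 3 for Pkm-202. The share of Pkm-201 was 94.8 ± 0.042% (SD, n = 2), and the transcripts do not differ in length in the tables, so the share does not turn on the length correction.

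Lactate dehydrogenase had the highest sum of the steps, 673 TPM in pup 1 and 630 TPM in pup 3, which is 18.7 times the hexokinase sum in pup 1 and 16.7 times in pup 3. Ldha, whose subunit favours lactate production and which is a HIF target, had 518 TPM in pup 1 and 470 TPM in pup 3 and was the highest member of the set. Ldhb, the heart-type subunit, had 154 TPM in pup 1 and 159 TPM in pup 3. Ldha exceeded Ldhb 3.15-fold, a log2 ratio of 1.65 ± 0.13 (SD, n = 2), and made up 77.0% of the step in pup 1 and 74.7% in pup 3. The leading transcript Ldha-202 held 98.1% of Ldha in pup 1 and 97.8% in pup 3. Ldhc, the testis form, was at 0.10 TPM in pup 1 and 0.060 TPM in pup 3.

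**Figure D2:**
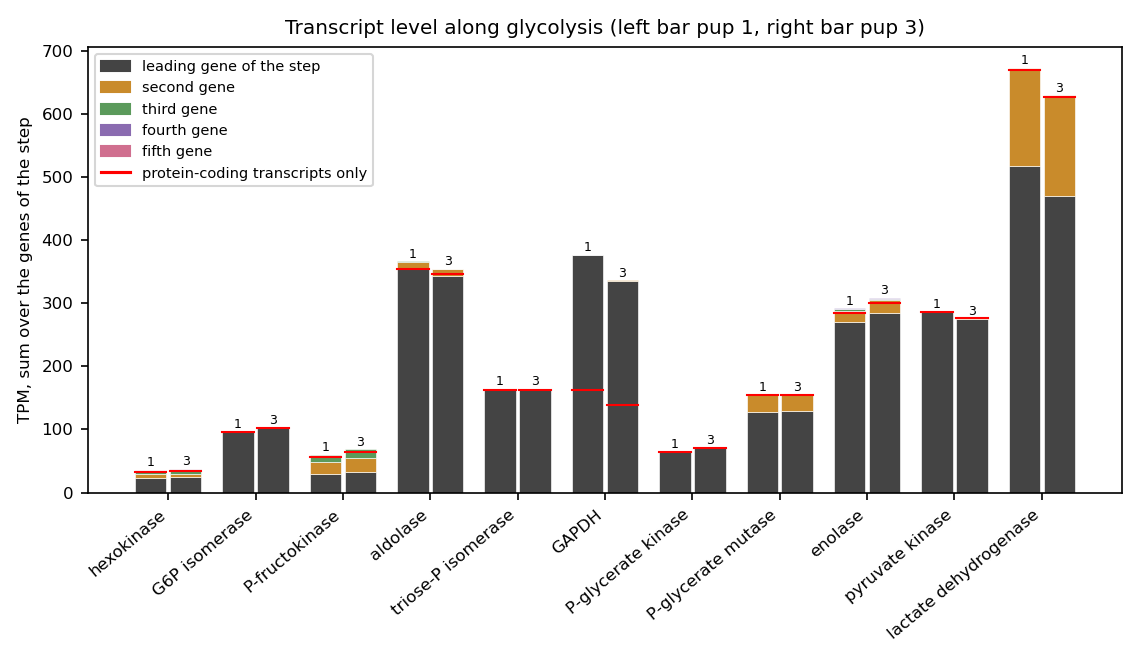
Summed TPM of the genes of each glycolytic step, with pup 1 as the left and pup 3 as the right bar, divided by gene in order of level. Red lines mark the sum over protein-coding transcripts only. The hexokinase bars (36.04 TPM in pup 1 and 37.77 TPM in pup 3) are the lowest and the lactate dehydrogenase bars (673 TPM in pup 1 and 630 TPM in pup 3) the highest, and the red line departs clearly from the bar only at GAPDH.

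Export of lactate and entry of pyruvate into the mitochondrion close the pathway. Slc16a1, which encodes the widely used lactate carrier MCT1, had 15.4 TPM in pup 1 and 15.3 TPM in pup 3. Slc16a3, which encodes MCT4, the HIF-inducible exporter of glycolytic cells, had 8.76 TPM in pup 1 and 9.12 TPM in pup 3, 1.71-fold lower, or 3.36-fold by longest-transcript lengths. Pdk1, the HIF-inducible kinase that shuts pyruvate dehydrogenase, had 17.9 TPM in pup 1 and 18.8 TPM in pup 3. Coding transcripts gave only 5.44 TPM of that in pup 1 and 5.24 TPM in pup 3, since the processed transcript Pdk1-208 led with 44.8% in pup 1 and 38.6% in pup 3. In counts the coding Pdk1-201 led, with 893 in pup 1 and 732 in pup 3, against 741 in pup 1 and 571 in pup 3 on Pdk1-208. In the 12 genes of pyruvate entry outside the set, all at TPM 1 or more in both pups, the carrier subunits Mpc1 (249 TPM in pup 1 and 254 TPM in pup 3) and Mpc2 (201 TPM in pup 1 and 211 TPM in pup 3) and the dehydrogenase subunit Pdhb (116 TPM in pup 1 and 108 TPM in pup 3) were highest.

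**Figure D3:**
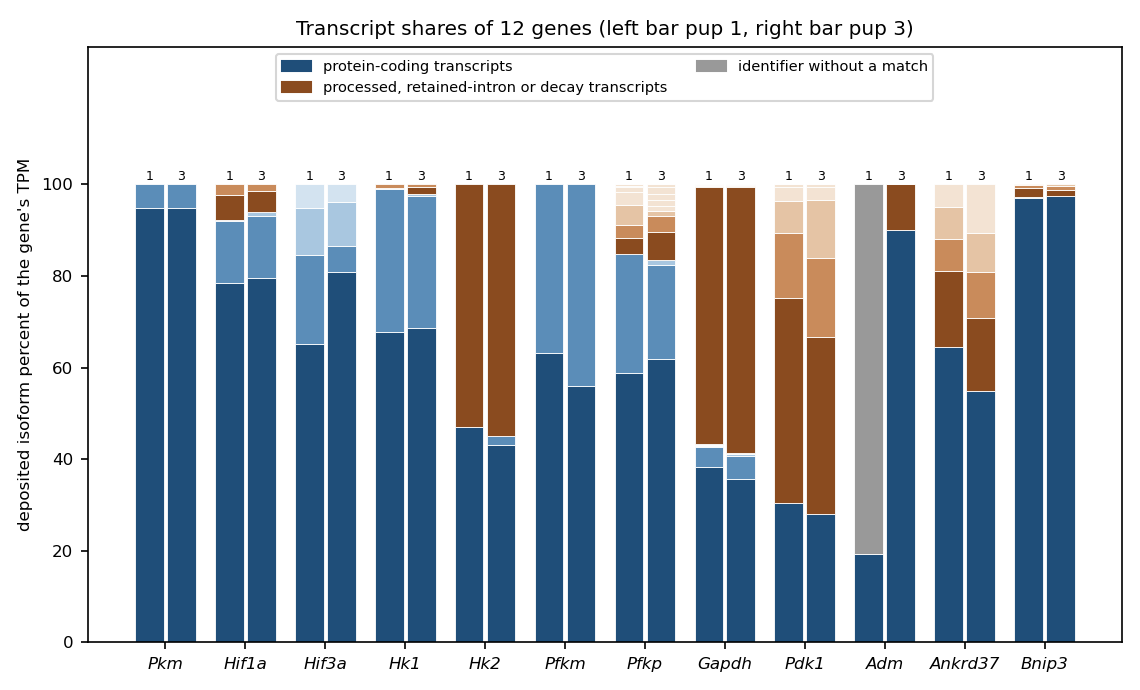
Deposited isoform percent of 12 members, pup 1 as the left and pup 3 as the right bar. Blue parts are protein-coding transcripts, brown parts processed, retained-intron or decay transcripts, and the grey part of Adm a transcript identifier with no match in the later annotation. Pkm is almost all 1 coding transcript (94.79% in pup 1 and 94.85% in pup 3), whereas noncoding transcripts lead Hk2, Gapdh and Pdk1.

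Over all 36 members, the same transcript led in both pups in 34, and the exceptions were Adm and Eno2. Coding transcripts held at least 90% of the TPM in both pups in 26 members and under 60% in either pup in 6, which were Hk2, Gapdh, Eno2, Pdk1, Adm and Ankrd37. The leader by TPM share was noncoding in 3, Gapdh, Hk2 and Pdk1, while a coding transcript had the most counts in each of these. With coding transcripts only, 34 members stayed at TPM 1 or more in both pups, all but Eno2 and Adm. The transcript of Adm without a match in the later annotation, 80.8% of the gene in pup 1, could not be typed and was counted as noncoding, and the place of Adm in these counts rests on that. The transcripts of Hk2, Gapdh, Pdk1, Pfkp, Adm and Ankrd37 were picked for mention after their values were seen.

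The 15 pairs of isoenzymes or family members were each written as a ratio, such as Hk1 over Hk2. In 13 the gene on top was higher in both pups, and in the other 2, Pfkm over Pfkp and Egln1 over Egln2, it was lower in both. No pair changed order between the pups. The ratio with the largest spread was Hif1a over Hif3a, at 2.57 ± 0.66 on the log2 scale (SD, n = 2), and the one with the smallest was Aldoa over Aldoc, at 4.99 ± 0.0024.

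HIF targets outside glucose metabolism ranged widely. Bnip3, a mitochondrial protein of cell death and mitophagy, had 124 TPM in pup 1 and 103 TPM in pup 3. Ankrd37, an ankyrin repeat gene induced by HIF, had 32.0 TPM in pup 1 and 25.1 TPM in pup 3, and the stress-responsive gene Ndrg1 had 14.3 TPM in pup 1 and 13.8 TPM in pup 3. Adm, which encodes the vasodilator peptide adrenomedullin, had 4.25 TPM in pup 1 and 6.91 TPM in pup 3. Car9, the carbonic anhydrase that is a classic hypoxia marker, had 1.86 TPM in pup 1 and 2.27 TPM in pup 3 from 115 counts in pup 1 and 106 counts in pup 3. The mean log2(TPM + 1) of these 5 genes was 3.97 in pup 1 and 4.00 in pup 3, below that of the 4 HIF subunits at 4.68 in pup 1 and 4.71 in pup 3. The difference, targets minus subunits, was -0.71 ± 0.0057 (SD, n = 2) and depends on which targets are in the list.

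In a list of 24 further HIF targets outside the set, 20 were at TPM 1 or more in both pups. Bnip3l, the relative of Bnip3 that clears mitochondria from maturing red cells, had 543 TPM in pup 1 and 562 TPM in pup 3, of which protein-coding transcripts gave 57.8 TPM in pup 1 and 61.5 TPM in pup 3, in lungs where the red cell markers summed to 55563 TPM in pup 1 and 66583 TPM in pup 3. Mif, a cytokine, had 309 TPM in pup 1 and 244 TPM in pup 3, and the lipid droplet gene Hilpda had 132 TPM in pup 1 and 112 TPM in pup 3, in both genes the same on coding transcripts alone, so that Bnip3l stood below both on that measure. Stc2 (0.58 TPM in pup 1 and 0.81 TPM in pup 3) and Car12 (0.21 TPM in pup 1 and 0.31 TPM in pup 3) stayed under TPM 1, and Epo, the kidney and liver hormone of red cell formation, had 0 counts in both libraries, where a count of 0 allows up to 3 counts.

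The pups were then set against each other. This compares 1 library with 1 library and has no replicate check, so that no p-value is given, and the 95% intervals below cover counting error only. Rounded counts were scaled by TMM, the trimmed mean of gene ratios, over all genes. No member differed at least 2-fold, against 1.40% of the 15790 genes with 50 or more counts over both libraries. At 1.25-fold, a size chosen after the values were seen, 3 members were higher in pup 1, against 6.14% of all tested genes, and 1 was higher in pup 3, against 7.52%. The 3 were Hif3a, Ankrd37 and Bnip3, and the other was Adm. These are 8.33% and 2.78% of the members, counts too small beside the background to set the members apart from other genes. Genes with at least 500 counts in the 2 libraries together gave log2 ratios between -0.17 and 0.18 for their central 68%, and 23 of the 36 members lay in that band, 7 above it and 6 below it.

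Hif3a, on chromosome 7, had 1048 counts in pup 1 and 664 in pup 3, which gave a fold of 1.42 after scaling (95% interval 1.29 to 1.57). Ankrd37, on chromosome 8, had 778 counts in pup 1 and 505 counts in pup 3 and a fold of 1.39 (1.24 to 1.56). It shares 57 exon bases with Ufsp2 and 349 with Lrp2bp on the opposite strand. In all, 13 members share exon bases with 16 other genes, 15 of them on the opposite strand, among them Pfkp with Pitrm1 over 748 bases, and their counts are uncertain because the use of strand in counting is not known here. Bnip3, on chromosome 7, had 6468 counts in pup 1 and 4596 counts in pup 3 and a fold of 1.27 (1.22 to 1.32). Adm, on chromosome 7, went the other way with 177 counts in pup 1 and 224 in pup 3, a fold of 0.71 (0.58 to 0.87). Its transcript estimate also differed, with Adm-201 at 19.2% in pup 1 and 89.9% in pup 3 and a transcript of 1390 bases without a match in the later annotation at 80.8% in pup 1 and 0% in pup 3. The TPM ratio of Adm therefore moves with that assignment as well as with its counts.

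HIF binds the core motifs ACGTG and GCGTG, and the windows of 250 bases before to 50 after the RefSeq start site were searched for both, on either strand. A palindrome such as CACGTG counts once on each strand, and hits may overlap. Windows were held for 33 of the 36 members, 47 windows in all, all but Epas1, Slc2a3 and Ndrg1. ACGTG was found in 24 of the 47 windows (51.1%), against 19.6% of all 32851 windows, and GCGTG in 27 (57.4%), against 32.4%. By gene, 21 of 33 members had ACGTG in at least 1 window, against 21.8% of all genes, and 21 had GCGTG, against 35.2%. The members were picked by function, known HIF targets among them, and the other windows were not matched to theirs for expression or base composition. Windows per gene also differ, with 47 over 33 members and 32851 over 27025 genes. The shares are therefore a description, and enrichment was not tested. Ldha had the most ACGTG matches in 1 window at 5. A match is a run of letters and not a site of binding. The windows of the 4 members past 1.25-fold with TMM are printed to show which of these letters they hold, with the motifs in capitals, 5′ to 3′ on the gene's strand, from RefSeq on GRCm38.p6.
Hif3a, chr7:17062378-17062677, reverse strand: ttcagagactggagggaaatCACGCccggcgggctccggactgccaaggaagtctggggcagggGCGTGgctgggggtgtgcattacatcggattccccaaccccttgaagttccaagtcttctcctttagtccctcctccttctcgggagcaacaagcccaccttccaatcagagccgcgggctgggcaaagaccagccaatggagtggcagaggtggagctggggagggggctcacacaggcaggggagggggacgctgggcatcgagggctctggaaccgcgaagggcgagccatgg
Ankrd37, chr8:45999801-46000100, reverse strand: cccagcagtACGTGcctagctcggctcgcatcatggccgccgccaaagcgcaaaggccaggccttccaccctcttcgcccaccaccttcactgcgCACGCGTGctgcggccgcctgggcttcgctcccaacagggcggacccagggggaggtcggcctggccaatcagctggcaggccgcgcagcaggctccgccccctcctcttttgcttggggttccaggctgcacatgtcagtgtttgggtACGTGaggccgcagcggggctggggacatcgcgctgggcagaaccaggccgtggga
Bnip3, chr7:138909457-138909756, reverse strand: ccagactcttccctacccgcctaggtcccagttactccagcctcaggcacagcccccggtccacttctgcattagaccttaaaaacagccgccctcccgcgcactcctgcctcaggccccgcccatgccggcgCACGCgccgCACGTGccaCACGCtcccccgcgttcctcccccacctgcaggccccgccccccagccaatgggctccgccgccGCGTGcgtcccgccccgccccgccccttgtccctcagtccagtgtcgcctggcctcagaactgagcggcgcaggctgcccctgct
Adm, chr7:110627407-110627706, forward strand: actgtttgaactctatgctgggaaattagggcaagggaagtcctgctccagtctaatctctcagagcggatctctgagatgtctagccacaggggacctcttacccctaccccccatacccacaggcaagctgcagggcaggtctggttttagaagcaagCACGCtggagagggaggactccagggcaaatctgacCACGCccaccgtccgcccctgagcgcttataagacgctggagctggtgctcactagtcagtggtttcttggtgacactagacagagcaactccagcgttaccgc
Bnip3 had 2 ACGTG and 3 GCGTG matches and Ankrd37 had 2 of each, while Hif3a and Adm had 0 ACGTG and 2 GCGTG matches each. These 4 genes were taken by a fold size chosen after the values were seen, and any link of the motifs to the difference between the pups was not tested.

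Ratios of the other members are given by role. All 5 genes of lactate and pyruvate handling were higher in pup 1 with TMM, with a median log2 ratio of 0.098, but Ldhb, Slc16a3 and Pdk1 changed direction under at least 1 other scaling. Ldha had 24606 counts in pup 1 and 18993 in pup 3, a fold of 1.17 (95% interval 1.15 to 1.19). Among the 16 glycolytic genes pup 1 had the higher value in 10 and pup 3 in 6, with a median of 0.030, a split that also changed with the scaling. Gapdh differed most among those with 500 counts or more, with 9519 counts in pup 1 and 7074 counts in pup 3 and a fold of 1.21 (1.18 to 1.25). Both glucose transporters were lower in pup 1 under every scaling tried, with Slc2a1 at 0.88 (0.81 to 0.95) and Slc2a3 at 0.81 (0.71 to 0.93). With TMM 3 of the 4 HIF subunits were lower in pup 1: Hif1a at 0.85 (0.81 to 0.88) and Arnt at 0.88 (0.83 to 0.93), both lower under every scaling tried, and Epas1 at 0.973 (0.949 to 0.997), which was higher in pup 1 with spike-ins. Eno2 had the widest interval, a fold of 1.31 (0.93 to 1.87), which holds 1 and so was not counted as different.

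**Figure D4:**
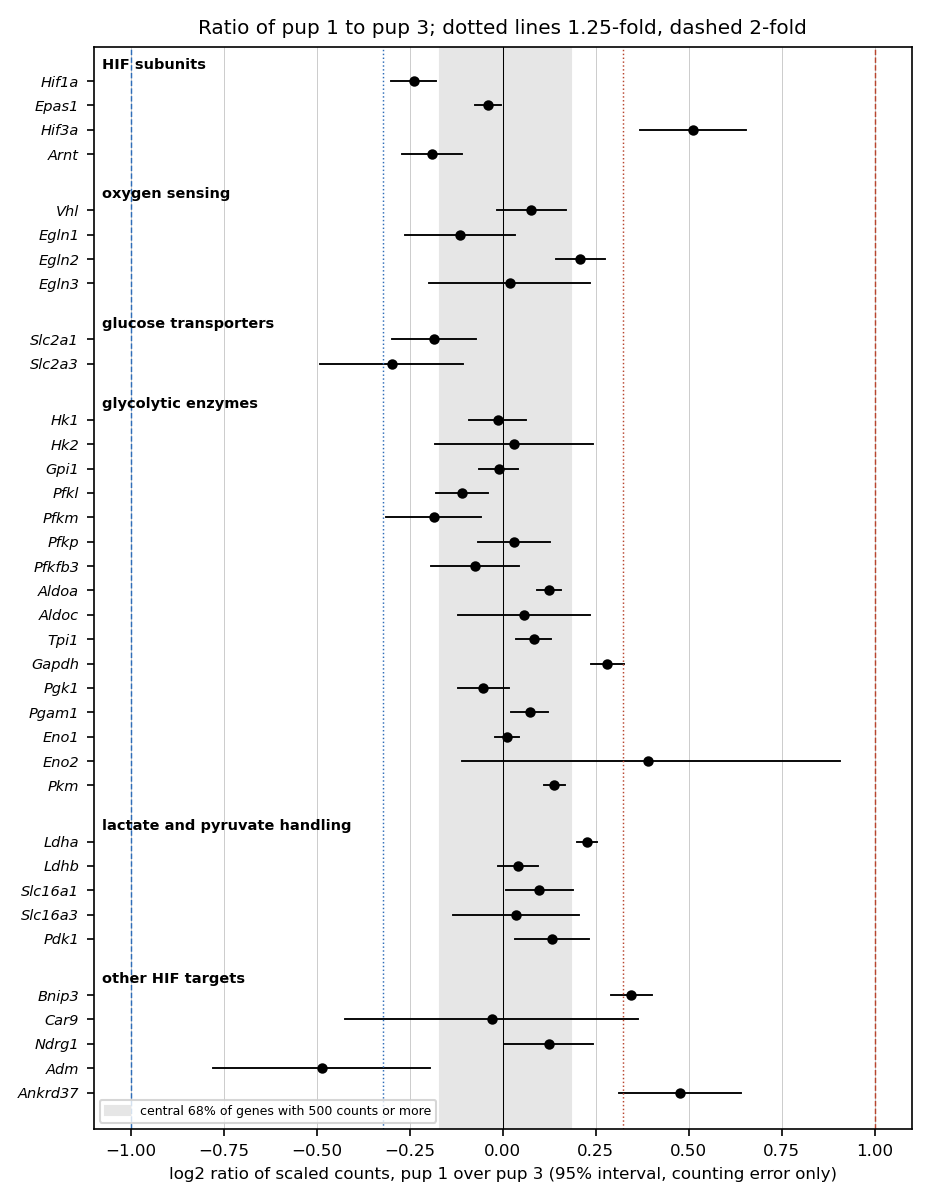
Log2 ratio of TMM-scaled counts, pup 1 over pup 3, for each member, with the 95% interval of counting error as a bar. Grey marks the central 68% of genes with 500 counts or more (-0.17 to 0.18), dotted lines 1.25-fold and dashed lines 2-fold. Hif3a, Ankrd37 and Bnip3 lie right of the right dotted line with intervals that leave out 0, Adm lies left of the left one, and no member reaches a dashed line.

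The median log2 ratio of the members was 0.033, against 0.0055 for all tested genes, and 22 members were higher in pup 1 and 14 in pup 3. That balance turned on the scaling. With TMM 51.0% of all tested genes were higher in pup 1. With total counts 16 members were higher in pup 1 and 20 in pup 3, beside 43.3% of all tested genes higher in pup 1, and on the TPM scale 14 were higher in pup 1 and 22 in pup 3, beside 36.1%. Spike-in RNA, with 317 counts in pup 1 and 316 in pup 3, moved the median of all genes up by 0.14 and gave 30 members higher in pup 1 and 6 in pup 3, beside 75.0% of all tested genes higher in pup 1. Under all 5 scalings 14 members were higher in pup 1 and 6 higher in pup 3, among them Ldha, Gapdh, Hif3a, Bnip3 and Ankrd37 in pup 1 and Hif1a, Arnt, Slc2a1, Slc2a3, Pfkm and Adm in pup 3. The directions of the other 16, Epas1 included, changed with the scaling. At 1.25-fold the split of 3 higher in pup 1 and 1 higher in pup 3 also changed. With total counts 2 members were higher in pup 1, beside 4.86% of all tested genes, and 2 in pup 3, beside 9.40%: Bnip3 no longer passed, and Slc2a3 passed as higher in pup 3. On the TPM scale 2 were higher in pup 1, beside 3.81%, and 1 in pup 3, beside 9.51%, and Bnip3 again did not pass. With spike-ins 7 were higher in pup 1, beside 17.1%, and 1 in pup 3, beside 3.44%, and Egln2, Eno2, Gapdh and Ldha joined Hif3a, Ankrd37 and Bnip3.

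Of the 7 genes that run glycolysis in reverse, 4 were at TPM 1 or more in both pups and 2 under it in both. Pcx, the first enzyme of the route, had 33.2 TPM in pup 1 and 35.5 TPM in pup 3, Pck2 had 21.2 TPM in pup 1 and 21.5 TPM in pup 3, and G6pc3 had 14.73 TPM in pup 1 and 14.02 TPM in pup 3. The liver and kidney enzymes Pck1 (0.070 TPM in pup 1 and 0.090 TPM in pup 3) and G6pc (0.070 TPM in pup 1 and 0.020 TPM in pup 3) were under TPM 1. Fbp1, the fructose bisphosphatase of liver, had 80 counts in pup 1 and 31 in pup 3, a fold of 2.33 (95% interval 1.52 to 3.65). Its muscle relative Fbp2 had 95 counts in pup 1 and 37 counts in pup 3, a fold of 2.32 (1.57 to 3.49). With TMM these were the only genes of the 7 pathway lists past the 2-fold rule, which 1.40% of the 15790 tested genes passed. Fbp1 had 2.07 TPM in pup 1 and 0.97 TPM in pup 3, and Fbp2 had 2.4 TPM in pup 1 and 1.1 TPM in pup 3. On the TPM + 1 scale neither reached 2-fold. Other isoenzymes under TPM 1 in both pups were the germ cell form Gapdhs (0.16 TPM in pup 1 and 0.19 TPM in pup 3) and the carrier Slc16a8 (0.11 TPM in pup 1 and 0.040 TPM in pup 3). Bpgm, which makes the oxygen-releasing bisphosphoglycerate of red cells, led the isoenzyme list with 56.9 TPM in pup 1 and 59.6 TPM in pup 3.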

How the data were processed

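Total RNA-seq of the lungs of 2 newborn pups, 2 lungs per library, was analysed from the gene and transcript tables. The deposited expected counts are estimated read counts that need not be whole, per the file headers. The deposited TPM and FPKM are scaled by effective length, and the deposited isoform percent gives a transcript's share of its gene. Text files deposited beside the tables name mm10 and annotation M4. Neither aligner, counter nor use of strand is given in the sources used here. Names, biotypes and exons came from GENCODE M21, on the same assembly, which held 42462 of the 43346 genes. A further 26248 features named by a number were left out.

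The members and lists were chosen with earlier results of these data known, and the glycolytic steps, the 1.25-fold size, the alignment of copies and the coding-only values of the count and of the target difference were added after the values were seen. With 2 pups the smallest 2-sided exact sign-flip p is 0.5, so none is given. Levels are means ± SD. For the pups, counts were rounded to whole numbers, TMM sizes came from edgeR 4.0.16 in R 4.3.3, the log2 ratio carried a prior count of 0.5, printed folds did not, and a gene counted as different at 2-fold with 50 counts and an exact conditional binomial 95% interval that left out 1. The interval was checked only on simulated counts drawn with counting error alone, the error it assumes. Such a check cannot show how the interval fares with any other spread between libraries. The interval covers counting error only, as reads carry no molecular identifiers. Copies were sought with blastn 2.17.0. Named by rule were all members and, in each pathway list, the 3 highest genes, any past 2-fold and any under TPM 1 in both pups, and the sum and leading gene of marker lists. Some genes that this rule takes are not reported here.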

Additional observations from a re-analysis of the deposited data

How the results depend on the processing

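The count of members at TPM 1 stayed between 29 (TPM 5) and 36 under the alternatives, with 35 by FPKM. All 13 pairs kept their order under posterior mean TPM, longest-transcript lengths, coding transcripts and added pseudogene counts. Leaving out either pup gave 36 members and 13 pairs again. It could not change these counts, since every member passed and every pair kept its order in both pups. Of 105 single pair ratios under alternatives, 20 moved by more than their SD and 0 reversed. The 105 include 15 ratios for each pup left out, which could neither move by more than the SD of the 2 pups nor reverse. The moves were 8 of 15 with longest-transcript lengths, 7 of 15 with posterior mean TPM and 5 of 15 with coding transcripts. HIF targets minus HIF subunits was -0.80 with a pseudocount of 0.1, -0.61 with posterior mean TPM and -0.997 with coding transcripts, where the untyped transcript of Adm was counted as noncoding, and the cause of the other shifts was not tested. The median log2 ratio of the members was 0.040 with DESeq2 size factors (DESeq2 1.42.0), beside 0.013 for all tested genes, and 0.18 with spike-ins, beside 0.15. It reversed to -0.0074 with total counts, beside -0.035 for all tested genes, and to -0.053 on the TPM + 1 scale, beside -0.062. The count of members that differ was 0 at 2-fold under every scaling and, with TMM, 4 at 1.25-fold. Leaving out either pup only restates the share of Pkm-201 in the other, 94.79% in pup 1 and 94.85% in pup 3. No paired analysis was possible because the study has 1 group. Depth limits Eno2, Car9 and Adm, with under 250 counts in each library, and reads shared with copies limit Gapdh, Pgk1, Pgam1 and Eno1.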

Other observations

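Glycogen genes were widely measured beside the glycolytic set. Gyg, the primer protein of glycogen synthesis, had 316 TPM in pup 1 and 339 TPM in pup 3, Ugp2 had 67.1 TPM in pup 1 and 81.8 TPM in pup 3, and Pgm1 had 67.1 TPM in pup 1 and 72.1 TPM in pup 3. Of the 12 glycogen genes 11 were at TPM 1 or more in both pups, and Gys2, the liver glycogen synthase, had 0 counts in both. Pygm, the muscle glycogen phosphorylase, had 1284 counts in pup 1 and 1773 in pup 3, a fold of 0.65 (95% interval 0.61 to 0.70), and the liver form Pygl had 3557 counts in pup 1 and 4074 counts in pup 3, a fold of 0.79 (0.75 to 0.82). Pygm and Pygl fall outside the naming rule and were picked after their values were seen. With TMM they were the 2 of 11 tested glycogen genes past 1.25-fold towards pup 3, beside 7.52% of all tested genes. Towards pup 1, 0 passed, beside 6.14%. The cardiac markers summed to 708 TPM in pup 1 and 811 TPM in pup 3. With TMM 6 of these 8 markers were higher in pup 3. The 2 higher in pup 1 were Actc1 at a fold of 1.20 and Nppa at 1.90. The part of cardiac muscle in the ratios of Pygm and Pygl was not tested.

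All 7 genes of the pentose phosphate pathway, which makes NADPH and ribose, were at TPM 1 or more in both pups. Taldo1 had 228 TPM in pup 1 and 218 TPM in pup 3, Pgls had 156 TPM in pup 1 and 154 TPM in pup 3, and Pgd had 105 TPM in pup 1 and 100.2 TPM in pup 3. None passed 1.25-fold.

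Among the 23 further HIF targets tested, 5 passed 1.25-fold towards pup 1, beside 6.14% of all tested genes, and 2 towards pup 3, beside 7.52%. These genes were picked after their values were seen, with TMM only. Under the other scalings, the share of all tested genes past 1.25-fold ran from 3.81% to 17.1% towards pup 1 and from 3.44% to 9.51% towards pup 3. Edn1, which encodes the vasoconstrictor endothelin, had 618 counts in pup 1 and 308 in pup 3, a fold of 1.81 (95% interval 1.58 to 2.08). Ddit4, an inhibitor of mTOR signalling, had 1275 counts in pup 1 and 823 counts in pup 3, a fold of 1.40 (1.28 to 1.53). Mif at a fold of 1.34, Higd1a at 1.28 and P4ha2 at 1.26 passed as well. In the other direction, Bhlhe40, a transcriptional repressor, had 1230 counts in pup 1 and 1913 in pup 3, a fold of 0.58 (0.54 to 0.62). Vegfa, the main growth factor of vessels, had 1707 counts in pup 1 and 2173 counts in pup 3, a fold of 0.71 (0.67 to 0.76). With TMM, genes of this list thus lay on both sides of the comparison of the pups, and HIF activity was not tested.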
